A study of Mus musculus with 15 samples.

Results

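Cathepsins are the proteases of the lysosome, and cystatin F, the product of Cst7, is an inhibitor that enters the same compartment. The 10 genes described here are Ctsb, Ctsc, Ctsd, Ctsh, Ctsk, Ctsl, Ctss, Ctsw, Ctsz and Cst7. They were taken by name from the 18217 named genes of a mouse microarray, with earlier results of these data known. They were read by 13 of its 41174 probes, with a second probe for Ctsb, Ctsd and Ctsz, and every value below is from the probe of a gene with the highest mean signal unless the second probe is named. All 10 genes had a probe, and all 13 probes were tested in each comparison.

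Most cathepsins are cysteine proteases made as inactive precursors that mature in the acid of the lysosome, while cathepsin D is an aspartic protease. Cathepsin C removes dipeptides from granzyme precursors and so activates the killing proteases of cytotoxic lymphocytes, and cystatin F is known to hold cathepsin C in check in these cells. Cathepsins S and L cut the invariant chain that blocks the groove of MHC class II molecules, cathepsin W is found in cytotoxic T and natural killer cells, and cathepsin K degrades collagen and elastin.

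Single-colour arrays were run on whole-organ RNA from male mice in 5 groups of 3 arrays. Cardiac allografts were hearts of B10 (C57BL/10, H-2b) donors in CBA (H-2k) recipients, taken 5 days after transplantation (POD5). Hepatic allografts were livers of B10.BR (H-2k) donors placed orthotopically in B10.D2 (H-2d) recipients, taken at POD5 and at POD8. Cardiac and hepatic controls are called normal tissue in the labels and isografts elsewhere in the study, their strain is not given in the labels, and the animals' age is not given. The study's methods speak of separate tissues and mice, but the labels tie no array to an animal, and the tests measure the spread between the 3 arrays of a group. Donor and recipient cells are both in a graft, and in such bulk tissue fewer cells of a type and less RNA per cell cannot be told apart.

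Signal differed between the groups before normalization. The 75th percentile of the processed signal was 1021 to 1247 on the cardiac controls, 394 to 710 on the cardiac allografts, 338 to 478 on the hepatic allografts at POD5, 384 to 454 at POD8 and 92.1 to 226 on the hepatic controls, and hepatic control 1 was the dimmest. Within a group, arrays correlated at 0.956 to 0.994 across probes, lowest among the hepatic controls. Some tissue markers followed the labels: Alb, Apoa1 and Ttr were not well above background on any cardiac control or allograft array, nor were the cardiac genes Myh6, Myl2 and Ryr2 on any hepatic array. Others were less strict. Of 6 hepatocyte markers, 1 was well above background on all arrays of each cardiac group, as were 3 of 8 cardiomyocyte markers in each hepatic group. The normalized cardiomyocyte sum was 593 to 749 on hepatic controls, 1392 to 1754 at POD5 and 565 to 1369 at POD8. The cardiac allografts shared 1 slide, and the cardiac controls another, so for the heart the slide cannot be told apart from the group. The hepatic POD5 allografts shared no slide with the hepatic controls either, so there too slide cannot be told apart from group. With slide as a random block Cst7 (limma adjusted p = 0.0142) and Ctsw (0.0177) were the genes called there. That block changes the spread only and cannot separate a slide effect from the difference. One slide held 2 hepatic controls and 2 POD8 allografts, which allowed a comparison within it.

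Cst7 and Ctsw were higher in the allografts of both organs and at both times, by 4.72 and 4.12 on the log2 scale in the heart. How large these differences were depended on the background correction, as given with each gene. Ctsc and Ctsz were higher in cardiac allografts, Ctss in hepatic allografts at POD8, and Ctsl and Ctsk were lower in cardiac allografts. A gene was called when limma's Benjamini-Hochberg adjusted p over all probes was under 0.05. In the heart 4 of the 10 genes were called higher, where 15.6% of all probes were, and 2 lower, where 16.4% were, 32% in either direction. In the liver at POD5 2 were called higher against 2.38% of probes and 0 lower against 0.778% (either direction 3.16%). At POD8 3 were called higher against 3.53% of probes and 0 lower against 1.44% (either direction 4.97%). At unadjusted p under 0.05, 6 genes were higher in POD5 livers, where 9.85% of probes were, and 7 in POD8 livers, where 10.2% were, and 0 were lower, where 10.7% and 11.9% were. Taken over the 10 genes, the median log2 difference was 0.64 for cardiac POD5, 0.54 for hepatic POD5 and 0.58 for hepatic POD8 allografts, against 0.017, -0.071 and -0.082 over all probes tested. The 2 hepatic comparisons share their controls.

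**Figure D1:**
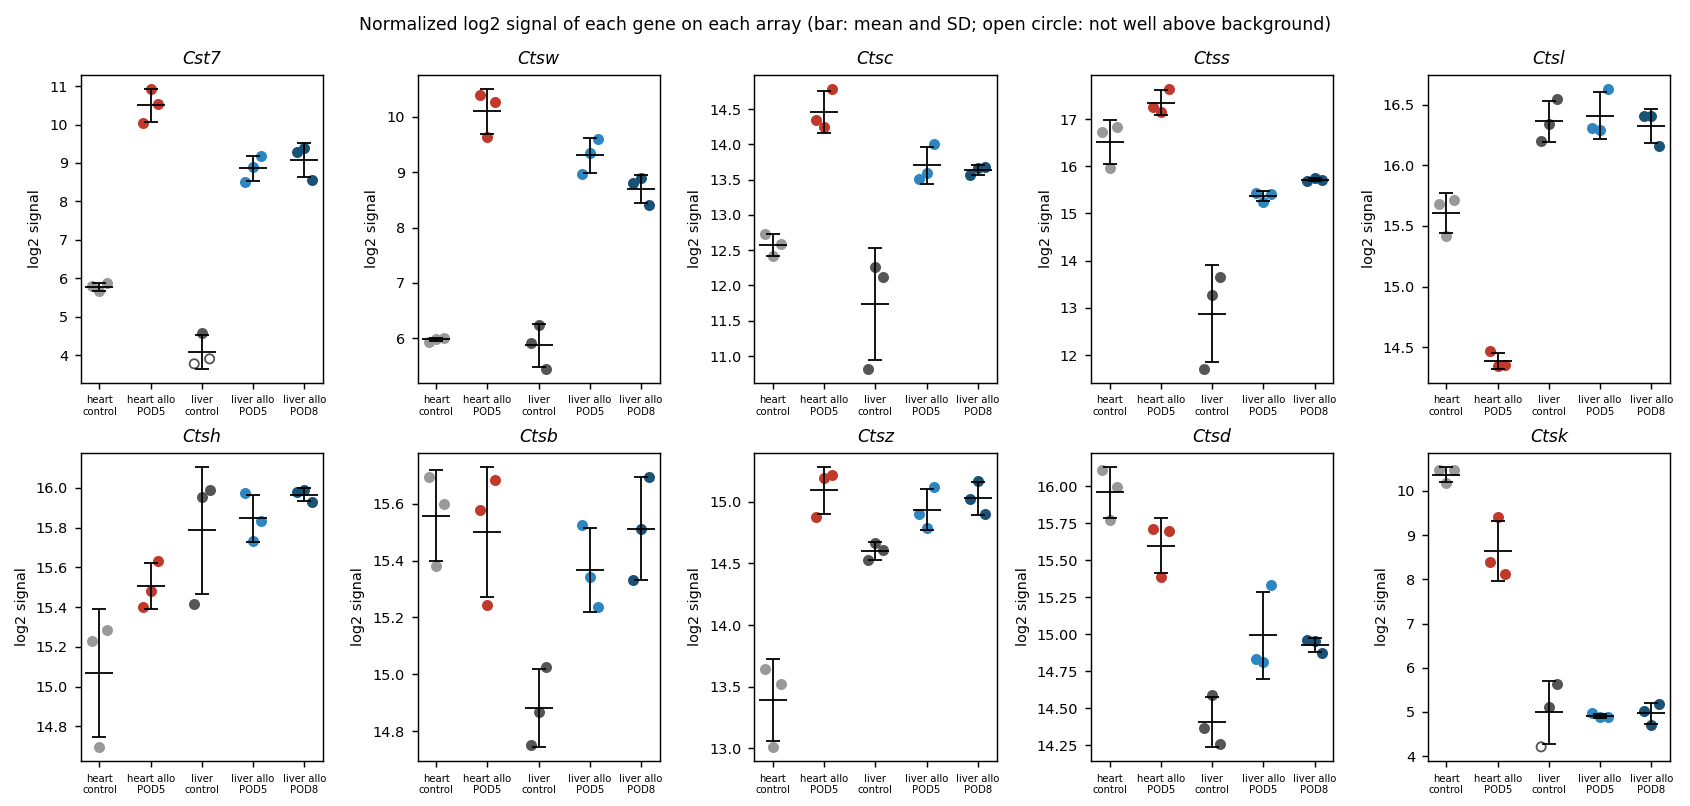
Normalized log2 signal of the 10 genes on each of the 15 arrays, 1 panel a gene with its own axis range. Points are arrays, bars are the group mean and SD, and open circles are arrays where the probe was not well above background. Cst7 and Ctsw rise above both sets of controls in every allograft, and hepatic control 1 is low for Ctsc and Ctss.

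A window of 250 bases before a transcription start was at hand for 7 of the 10 genes, from RefSeq on GRCm38.p6, and for none of Ctsb, Ctsh and Ctsw. The windows of Ctsc and Ctsl run into the gene's own annotated span and are left out, which leaves 5. Those of 3 genes are shown: Cst7 and Ctss, with the largest hepatic differences among the 5, and Ctsk, which was called lower in cardiac allografts. Capitals mark matches, on either strand, to 3 motifs: the interferon-stimulated response core GAAANNGAA bound by IRF proteins, CACGTG, the centre of the element bound by the lysosomal regulator TFEB, and GAGGAA, bound by the myeloid and B cell factor PU.1. A match on the opposite strand appears as its reverse complement.
Cst7, chr2:150570165-150570414, plus strand: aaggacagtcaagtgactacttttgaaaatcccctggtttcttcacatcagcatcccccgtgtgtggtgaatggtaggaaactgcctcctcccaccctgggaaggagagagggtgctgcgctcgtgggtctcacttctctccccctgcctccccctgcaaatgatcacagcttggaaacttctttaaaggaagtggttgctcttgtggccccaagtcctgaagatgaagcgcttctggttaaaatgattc
Ctss, chr3:95526536-95526785, plus strand: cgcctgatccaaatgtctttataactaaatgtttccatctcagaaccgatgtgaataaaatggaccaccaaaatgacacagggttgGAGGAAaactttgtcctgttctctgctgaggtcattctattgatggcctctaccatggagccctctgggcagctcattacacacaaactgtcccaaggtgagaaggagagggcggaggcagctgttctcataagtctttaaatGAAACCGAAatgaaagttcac
Ctsk, chr3:95498960-95499209, plus strand: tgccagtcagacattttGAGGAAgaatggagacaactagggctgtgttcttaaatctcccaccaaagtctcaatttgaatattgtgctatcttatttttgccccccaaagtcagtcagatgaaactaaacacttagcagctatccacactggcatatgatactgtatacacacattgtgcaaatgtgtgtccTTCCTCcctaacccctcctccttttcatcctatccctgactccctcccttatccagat
Ctss held the interferon-stimulated response core 21 bases before its start, and 7.13% of all 32851 such windows hold one. GAGGAA was found in Ctss and Ctsk, and 23.3% of windows hold it. CACGTG, held by 6.02% of windows, occurred at 2 places in Ctsd, which is not shown. Cst7 and Ctsz held no match to any of the 3, and none of the matches shown overlapped another.

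Cystatin F had the largest difference of the 10 genes in each organ. The log2 signal of Cst7 was 5.79, 5.67 and 5.87 on the cardiac controls and 10.04, 10.92 and 10.52 on the cardiac allografts. It was 3.77, 4.59 and 3.90 on the hepatic controls, where only the array at 4.59 lay well above background. The hepatic allografts lay at 8.52, 8.88 and 9.17 at POD5 and at 9.28, 9.39 and 8.56 at POD8. No allograft array overlapped the controls of its organ. The difference was 4.72 ± 0.24 in the heart (log2, SE, n = 3 per group, adjusted p = 0.000647), which is 26.3-fold. It was 4.77 ± 0.29 in POD5 livers (adjusted p = 0.00737) and 4.99 ± 0.33 at POD8 (adjusted p = 0.00362), 27.3-fold and 31.8-fold. Cardiac allografts stood above hepatic ones, cardiac controls above hepatic controls, and only the POD5 and POD8 livers overlapped in this order. With hepatic POD5 array 2 left out, the hepatic POD5 difference was 4.76 at an adjusted p of 0.0623. With normexp background correction and an offset of 50 the differences of Cst7 were smaller, 3.44 in the heart and 2.67 and 2.93 in the liver, and still called. Within the slide that held 2 arrays of each group, the POD8 difference was 5.16 at an adjusted p of 0.0669.

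Cathepsin W followed, with the same direction in each comparison. Ctsw lay at 5.94, 5.995 and 6.001 on the cardiac controls and at 10.40, 9.64 and 10.27 on the cardiac allografts. The hepatic controls were 5.92, 6.24 and 5.45, the POD5 allografts 8.97, 9.35 and 9.60, and the POD8 allografts 8.80, 8.89 and 8.41. Allografts and controls did not overlap in either organ, while cardiac and hepatic controls overlapped each other. The log2 difference was 4.12 ± 0.22 in the heart (17.4-fold, adjusted p = 0.000695), 3.43 ± 0.27 in POD5 livers (10.8-fold, adjusted p = 0.0103) and 2.83 ± 0.25 at POD8 (7.09-fold, adjusted p = 0.00836). The hepatic calls were lost without POD5 array 1 (adjusted p = 0.0531) or 2 (0.0683), and without POD8 array 1 (0.0605) or 2 (0.0566), with differences of 2.73 to 3.60. With normexp the differences of Ctsw were 3.23 in the heart and 2.59 and 2.04 in the liver, and were called. Within the slide that held both groups the POD8 difference of Ctsw was 2.76 (adjusted p = 0.0629). The study's own statistic, the standardized fold change, was also run with Bonferroni adjustment. It called Ctsw in the heart (adjusted p = 0.0364) and at POD5 (0.00636) but not at POD8 (2.88, adjusted p = 0.705).

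Cathepsin C was called in the heart alone, although its hepatic differences were of like size. The signal of Ctsc was 12.73, 12.42 and 12.59 on the cardiac controls and 14.34, 14.24 and 14.79 on the cardiac allografts, a difference of 1.88 ± 0.18 (3.68-fold, adjusted p = 0.00222). Hepatic controls were 10.82, 12.26 and 12.13, and hepatic allografts 13.51, 13.59 and 14.00 at POD5 and 13.56, 13.67 and 13.68 at POD8. The groups did not overlap, but hepatic control 1 lay well below the other two. The hepatic differences were 1.96 ± 0.43 (adjusted p = 0.0818) and 1.90 ± 0.41 (adjusted p = 0.0699). Without hepatic control 1 they were smaller, 1.51 and 1.44, and were called (adjusted p = 0.049 and 0.0105). At POD8 Ctsc was also called with scaling to the 75th percentile (1.70, adjusted p = 0.0219) and with normexp (1.85, adjusted p = 0.0411). In all, 3 of 20 alternative settings called it at POD5 and 5 of 21 at POD8. In order of level, hepatic controls were lowest, then cardiac controls, POD8 and POD5 livers, which overlapped, and cardiac allografts.

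Of cathepsins S and L, both cutters of the invariant chain, the first was called higher in the liver at POD8 and the second lower in the heart. Ctss was 16.74, 15.97 and 16.83 on the cardiac controls and 17.26, 17.15 and 17.65 on the cardiac allografts. Hepatic controls were 11.71, 13.26 and 13.65, POD5 livers 15.44, 15.25 and 15.42 and POD8 livers 15.68, 15.76 and 15.71. All 5 groups were separate, in the order hepatic controls, POD5 livers, POD8 livers, cardiac controls and cardiac allografts. In the heart the difference was 0.84 ± 0.28 (adjusted p = 0.074), not called, although scaling to the 75th percentile (adjusted p = 0.0351) and normexp (0.0357) called it. In the liver it was 2.49 ± 0.52 at POD5 (adjusted p = 0.0751), not called, and 2.84 ± 0.52 at POD8 (7.16-fold, adjusted p = 0.0486), or 3.23 within the slide that held both groups (adjusted p = 0.138). The POD8 call was lost without hepatic control 2 (adjusted p = 0.0947) or any of the 3 POD8 arrays (0.142 to 0.184), and POD5 was called without hepatic control 1 (1.91, adjusted p = 0.0281) and with normexp (2.52, adjusted p = 0.0495).

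Ctsl was lower in the transplanted heart. Cardiac controls were 15.68, 15.42 and 15.71 and cardiac allografts 14.46, 14.35 and 14.35, with no overlap and a difference of -1.22 ± 0.11 (2.32-fold lower, adjusted p = 0.00208). Hepatic controls were 16.20, 16.34 and 16.54, POD5 livers 16.31, 16.29 and 16.63 and POD8 livers 16.40, 16.40 and 16.16. The 3 hepatic groups overlapped, and their differences were 0.047 (95% interval -0.38 to 0.47) at POD5 and -0.040 (-0.40 to 0.32) at POD8.

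Ctsz, Ctsd, Ctsb and Ctsh, which encode broadly expressed lysosomal enzymes, were well above background on every array. Ctsz, which encodes a carboxypeptidase also called cathepsin X, was 13.65, 13.01 and 13.52 on the cardiac controls and 14.88, 15.19 and 15.21 on the cardiac allografts. This was a difference of 1.70 ± 0.21 (3.25-fold, adjusted p = 0.00402), and the second probe gave 1.83 (adjusted p = 0.00302). In the liver Ctsz went from 14.52, 14.67 and 14.61 on the controls to 14.90, 14.79 and 15.12 at POD5 and 15.02, 15.17 and 14.90 at POD8. These groups did not overlap the controls, yet the differences of 0.33 (adjusted p = 0.268) and 0.43 (adjusted p = 0.119) were not called.

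Ctsd, the aspartic protease, was 16.11, 15.77 and 15.997 on the cardiac controls and 15.71, 15.39 and 15.70 on the cardiac allografts, a difference of -0.36 ± 0.14 (adjusted p = 0.117). Its second probe was called lower there, by 0.70 (log2 difference -0.70, adjusted p = 0.0141), so the 2 probes disagree on the call. Hepatic controls were 14.37, 14.59 and 14.26, POD5 livers 14.84, 14.81 and 15.33 and POD8 livers 14.96, 14.95 and 14.88. Those groups did not overlap the controls either, with differences of 0.59 (adjusted p = 0.191) and 0.52 (adjusted p = 0.089).

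Ctsb, an endopeptidase that also trims dipeptides from the ends of its substrates, ranged over 15.38 to 15.69 on the cardiac controls and 15.24 to 15.68 on the cardiac allografts, which overlapped. Its difference was -0.057 (95% interval -0.45 to 0.34), while the dimmer second probe was called lower (-0.68, adjusted p = 0.0493). Hepatic controls spanned 14.75 to 15.03, POD5 livers 15.24 to 15.52 and POD8 livers 15.33 to 15.69. The hepatic differences of 0.48 (adjusted p = 0.16) and 0.63 (adjusted p = 0.0813) were not called, and the second probe gave -0.72 (adjusted p = 0.518) at POD5. Ctsh, an aminopeptidase, spanned 14.70 to 15.28 on cardiac controls and 15.40 to 15.63 on cardiac allografts (difference 0.44, adjusted p = 0.134). It spanned 15.42 to 15.99 over all hepatic arrays, and its hepatic differences were 0.060 (95% interval -0.45 to 0.57) and 0.18 (-0.29 to 0.65).

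Cathepsin K, the collagen-degrading protease known from osteoclasts and fibroblasts, was brighter in both cardiac groups than in any hepatic group. Ctsk was 10.47, 10.17 and 10.48 on the cardiac controls and 8.39, 9.40 and 8.12 on the cardiac allografts. The groups did not overlap, and the difference was -1.73 ± 0.36 (3.33-fold lower, adjusted p = 0.0186). The call was lost without cardiac control 1 (adjusted p = 0.0675), 2 (0.0501) or 3 (0.0694) or cardiac allograft 1 (0.0593), with differences of -1.61 to -1.84. Every hepatic array lay between 4.21 and 5.63, and hepatic control 1 was not well above background. The hepatic differences were -0.080 (95% interval -1.02 to 0.86) and -0.023 (-1.01 to 0.96).

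**Figure D2:**
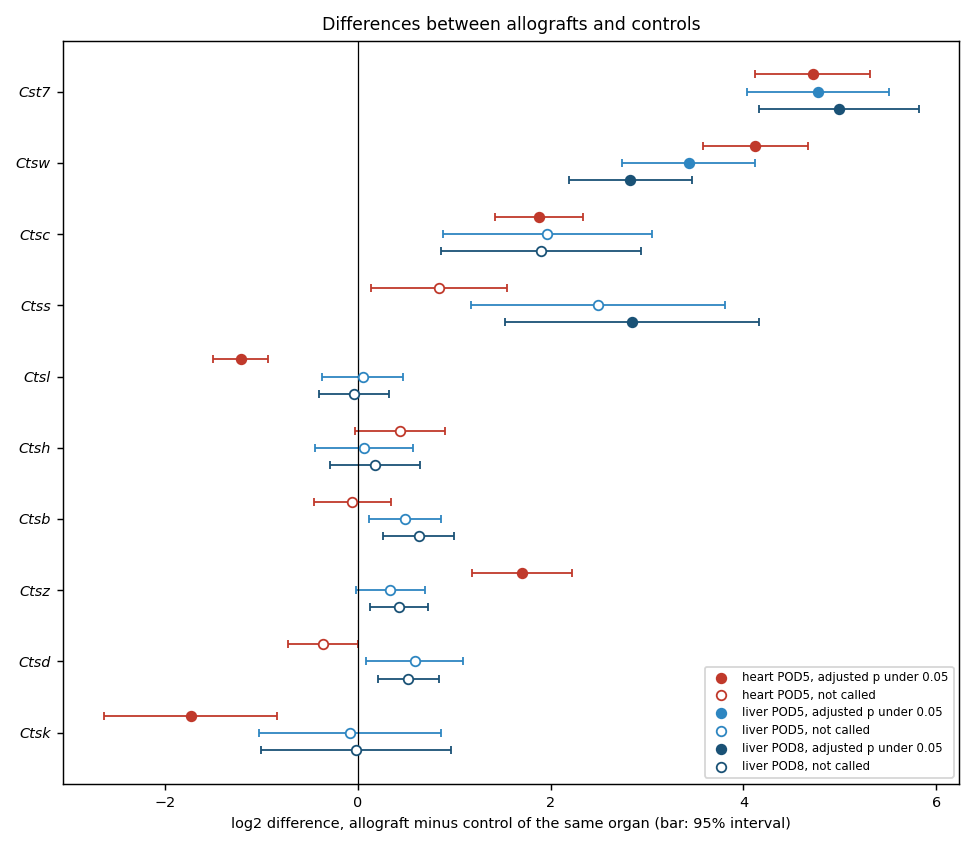
Log2 difference of allografts from controls of the same organ, with 95% intervals, for the 10 genes in 3 comparisons of 3 arrays against 3. Filled points have an adjusted p under 0.05: Cst7 and Ctsw in all 3 comparisons, Ctsc, Ctsz, Ctsl and Ctsk in the heart and Ctss in the liver at POD8.

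Separation of the groups was common among all probes and is no result about these genes by itself. It held for 9 of the 10 genes in the heart, where 54.6% of probes were separate, and for 7 in each hepatic comparison, where 31.2% at POD5 and 31.4% at POD8 were.

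Whether the cardiac and hepatic POD5 differences were unequal was tested as an interaction over 12 arrays. In it 1 of the 10 genes was called with the higher difference in the heart, where 6.41% of probes were, and 2 with the lower, where 7.26% were, 3 in all against 13.7%. Ctsz had a larger difference in the heart by 1.37 ± 0.26 (log2, adjusted p = 0.0107, second probe 1.38, adjusted p = 0.0186), and it was called under each of 23 alternative settings. Ctsl had a lower one by -1.26 ± 0.21 (adjusted p = 0.00656). Scaling to the 75th percentile gave -0.53 (adjusted p = 0.284), and this scaling moved the median of all probes in the interaction to 0.64. The difference of Ctsd was -0.95 ± 0.26 (adjusted p = 0.0394), its second probe gave -1.64 (adjusted p = 0.0974), and the call was lost in 9 of the 12 fits without 1 array (with values of -0.78 to -1.03 and adjusted p of 0.0504 to 0.0961), with slide as a random block (-1.08, adjusted p = 0.0612) and with the 75th percentile (-0.44, adjusted p = 0.413), and 11 of 23 alternatives called it. For Cst7 the interaction was -0.053 (95% interval -0.94 to 0.83), for Ctsc -0.084 (-1.18 to 1.01) and for Ctsw 0.69 (-0.13 to 1.51). The values for Ctss, -1.65 (adjusted p = 0.107), and Ctsk, -1.65 (adjusted p = 0.0721), did not pass. Organ, strain combination and kind of operation differ together in this test and cannot be told apart. No slide held both allografts and controls of this test, so slide cannot be told apart either.

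**Figure D3:**
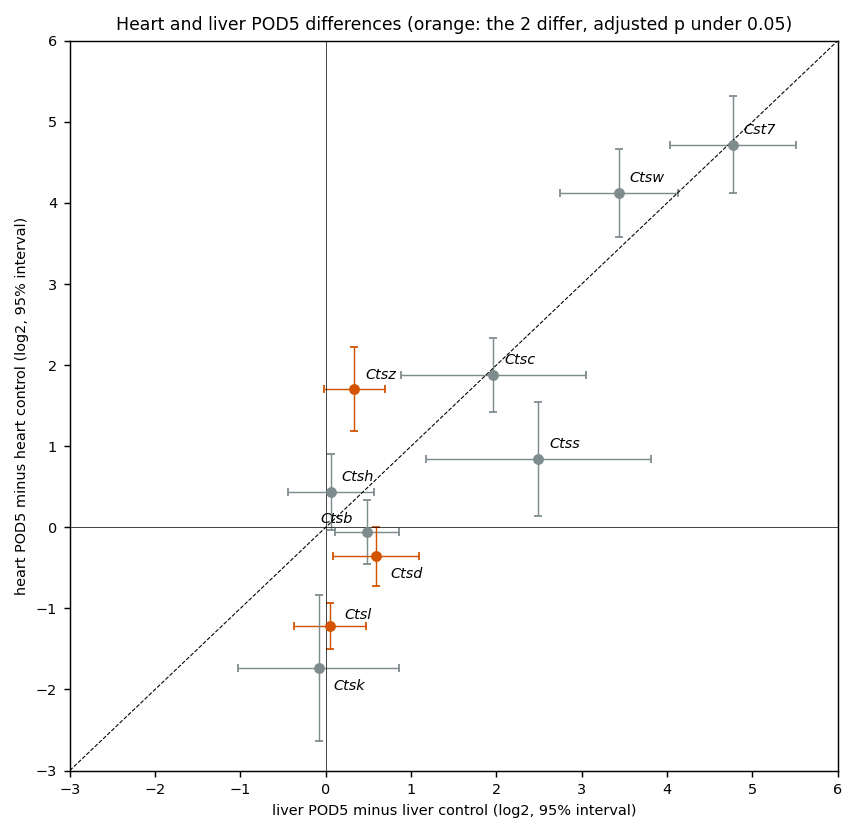
Log2 difference of cardiac POD5 allografts from cardiac controls (vertical) against that of hepatic POD5 allografts from hepatic controls (horizontal), with 95% intervals and a dashed line of equality. Ctsz lies above the line and Ctsl and Ctsd below it, in orange (interaction adjusted p under 0.05).

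Between hepatic allografts at POD8 and POD5 none of the 10 genes was called by limma, where 0% of probes were. At unadjusted p under 0.05 limma counted 1 gene higher, Ctss by 0.35 ± 0.10, and 1 lower, Ctsw by -0.61 ± 0.22, out of 5299 of 41165 probes. The arrays of these genes did not overlap between the 2 times, as for 19.7% of probes. The standardized fold change (SFC), the study's own statistic, called 0 of the 10 genes and 213 probes after Bonferroni adjustment, and the methods' t-test called 0 of the 10 genes and 3 probes after Benjamini-Hochberg adjustment. For Cst7 the difference was 0.22 (95% interval -0.50 to 0.94).

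In the controls, liver against heart, 7 of the 10 genes were called, where 48.2% of probes were: 2 higher against 22.7% and 5 lower against 25.5%. The arrays of 9 genes did not overlap, as for 66.4% of probes. Cardiac and hepatic controls shared no slide, and their strains are not given in the labels, so slide and any strain difference cannot be told apart from organ. Ctsk was lower in the liver by a log2 difference of -5.38 ± 0.38 (adjusted p = 0.000256), Ctss by -3.63 ± 0.57 (adjusted p = 0.00429), Cst7 by -1.69 (adjusted p = 0.00308) and Ctsd by -1.55 (adjusted p = 0.000756). Of the hepatic controls 2 arrays measured Ctsk and 1 measured Cst7 well above background. With normexp Ctsk was -3.80 and Cst7 -0.69, and with normalization within each organ they were -6.73 and -3.04. Ctss ranged from -4.53 within each organ to -2.83 with the 75th percentile, and Ctsd from -2.52 to -0.82. Ctsb was lower too, by -0.68 (adjusted p = 0.0115), and was -1.65 within each organ and 0.11 with the 75th percentile. Ctsz (1.21, adjusted p = 0.00464) and Ctsl (0.76, adjusted p = 0.0096) were higher. Normalization within each organ gave 0.14 for Ctsz (adjusted p = 0.548) and -0.14 for Ctsl, and the 75th percentile gave 1.84 and 1.70. Normalization within each organ moved the median of all probes to -0.95, and the 75th percentile moved it to 0.76.

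The list counts here and below, also of markers, stand beside the shares of all probes called. These were 15.6% higher and 16.4% lower in the heart, 2.38% and 0.778% in POD5 livers and 3.53% and 1.44% at POD8. A list of 6 tested genes held other cathepsins and the related proteases napsin A and legumain. Of these 6, 1 was higher and 1 lower in the heart and in the liver at POD5, and 1 higher at POD8. Napsa, the aspartic protease napsin A, was the higher one each time (2.55, 1.99 and 2.51), and Ctsf, which encodes cathepsin F, the lower one (-1.40 in cardiac and -1.18 in hepatic POD5 allografts). Of 8 cathepsins of the rodent placenta 0 were called by limma in any of these 3. Among 13 other cystatins and stefins, Cst11 was higher (at least 2.19-fold) and Cst6 lower (-2.29) in the heart and 0 were called in the liver. The Cst11 probe was well above background on 1 cardiac allograft and no cardiac control. Of 7 serpins that inhibit cathepsins or granzymes, 2 rose and 3 fell in the heart, 1 rose in POD5 livers and 2 in POD8 livers. Serpina3f rose by 4.72 in the heart and 4.01 in the liver at POD8, and Serpinb6b, which fell by 0.70 in the heart (-0.70), rose by 1.41 and 1.58 in the liver.

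Some of the granule proteases that cathepsin C can activate were higher. Of 12, 4 were called higher in the heart, 3 in POD5 livers and 4 at POD8, with list medians of 0.43, 0.35 and 0.42. Gzmb, a granzyme that activates caspases, was the largest, at 7.81, 7.12 and 6.76. Gzma was higher by 3.86, 4.82 and 5.51 and Gzmk by 4.15 in the heart, where 1 of 3 controls lay well above background. Gzmk was not well above background on any hepatic control, and by the dimmest signal so marked it exceeded that bound at least 5.83-fold at POD5 and no less than 2.46-fold at POD8. Gzmc was higher in the heart (4.46) and, from a control level also below background, at least 3.35-fold higher in the liver at POD8. Ctsc itself, their activator, was given above.

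Most genes of the class II list, among them the invariant chain that cathepsins S and L cut, were higher. Of 9 tested, 8 were called higher in the heart (median 3.44), 7 in POD5 livers (3.24) and 7 at POD8 (3.70). H2-DMa, part of the peptide exchanger, rose by 4.50 in the heart, and H2-Ab1, a class II chain, by 4.46. H2-Aa rose by 3.94 and 4.60 in the liver, and Cd74, the invariant chain itself, by 2.99, 3.83 and 4.23. Of 5 genes of the endosomal Toll-like receptors, counting Unc93b1, which carries the receptors to the endosome, 3 were higher and 1 lower in the heart (Unc93b1 1.40, Tlr9 1.14, Tlr7 -1.90). In the liver 0 of these were called by limma at POD5 and 2 at POD8 (Unc93b1 by 1.04, and Tlr8, which only 1 POD8 array showed well above background).

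Of 24 lysosomal hydrolases, 6 were higher and 1 lower in the heart, where 15.6% and 16.4% of all probes were. Acp2 (1.32) and Ppt1 (1.12) led those higher. In POD5 livers 0 of the hydrolases were called, and 1, Ppt1 (1.08), at POD8. Of 16 membrane and proton pump genes, 2 were higher and 2 lower in the heart, 1 higher at POD5 and 2 at POD8. Laptm5, a lysosomal protein of leukocytes, was higher in the liver by 2.03 and 2.13. Atp6v0d2, a pump subunit of osteoclasts and macrophages, was at least 4.27-fold lower in the heart, where no allograft array lay well above background. Of 8 sorting and transcription genes 2 rose and 2 fell in the heart, 0 were called at POD5 and 1 rose at POD8. Of the 5 matrix substrates of cathepsin K, 3 were lower in the heart (Eln -1.85, Col1a1 -1.25, Col2a1 -0.77) and 0 were called in the liver.

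**Figure D4:**
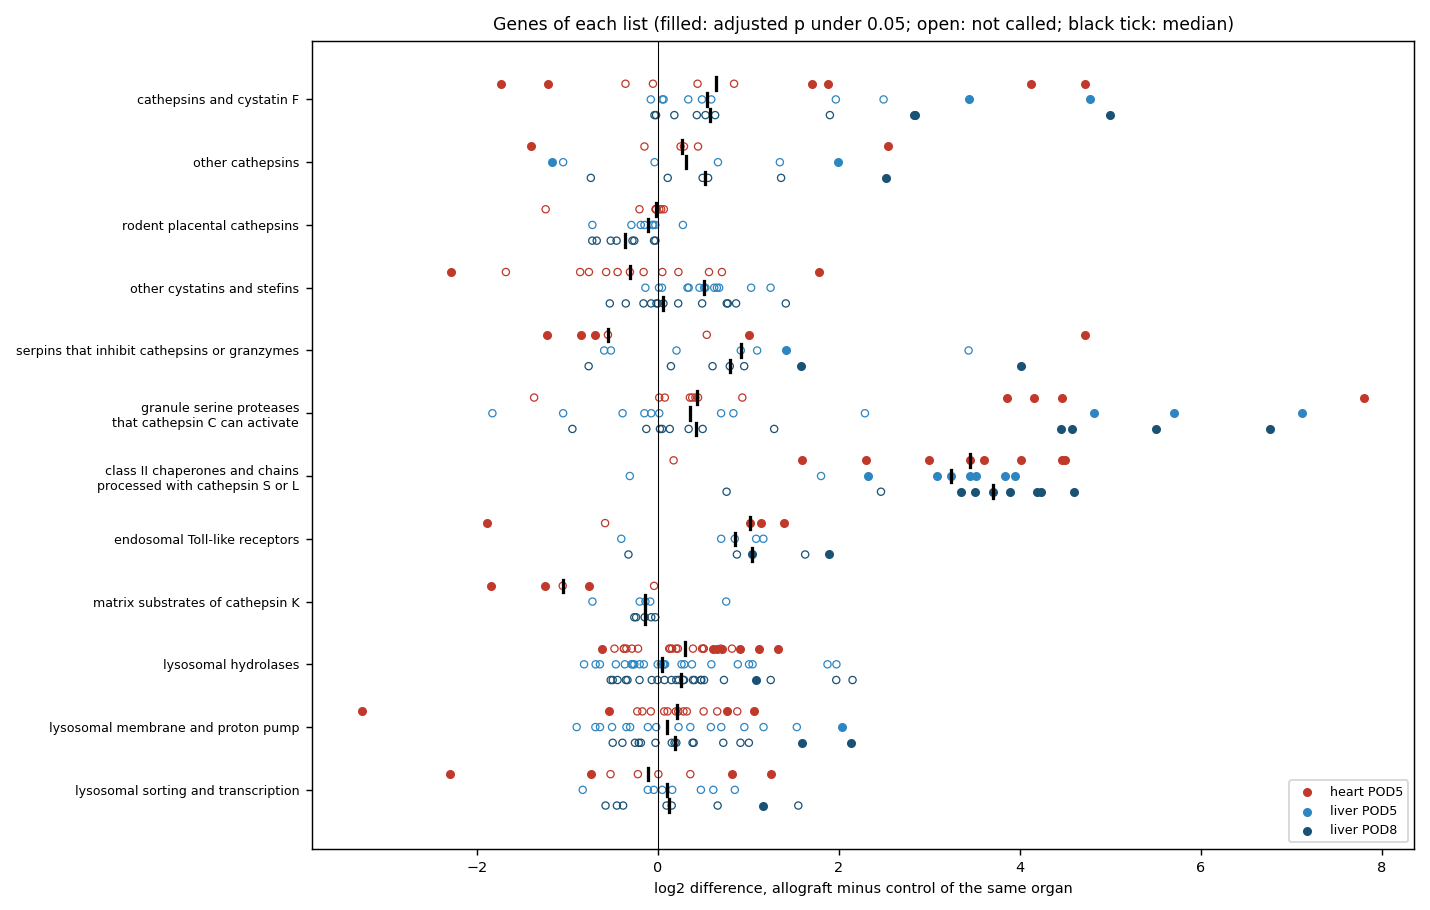
Log2 difference of every tested gene of the 10 and of 11 related lists in the 3 comparisons of allografts with controls. Filled points have an adjusted p under 0.05, open points do not, and black ticks are list medians, which reach 3.44, 3.24 and 3.70 for the class II list.

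Markers of the cells that could carry these genes moved as well. The summed signal of 7 T cell markers was 455 to 651 on the cardiac controls and 9948 to 14246 on the cardiac allografts, and all 7 were called higher. In the liver it was 461 to 562 on the controls, 6597 to 11189 at POD5 and 5169 to 6749 at POD8, with 6 of 7 called higher each time. Cd8a was higher by 6.02 in the heart and at least 104.2-fold and 105.4-fold higher in the liver, where no control array lay well above background. Of 5 natural killer markers 5 were called higher in the heart, 2 in POD5 livers and 4 at POD8, and Ncr1 was below background on every hepatic control and POD5 array. Their sum was 362 to 527 on the cardiac controls, 2257 to 2915 on the cardiac allografts, 88.9 to 193 on the hepatic controls, 1222 to 2146 at POD5 and 961 to 1380 at POD8. Cst7 and Ctsw were higher beside these lists in both organs and Ctsc in the heart, and the part of cell numbers in their differences was not tested.

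The 9 macrophage markers summed to 64084 to 90245 on the cardiac controls and 93616 to 113201 on the cardiac allografts, with C1qa and C1qc higher and Mrc1 lower. They summed to 10261 to 29991 on the hepatic controls, 44827 to 51148 at POD5 and 57911 to 64315 at POD8, with 0 called. Hepatic control 1 gave the lowest of these sums, as it did the lowest Ctss. Of 5 Kupffer cell markers 3 were lower in the heart (Vsig4 -4.57, Cd5l -3.99, Clec4f) and 1 was higher in the liver at POD8, Marco. Clec4f was not well above background on any cardiac allograft. The Kupffer sums overlapped in the heart, with 961 to 4398 on the controls and 1392 to 8847 on the allografts. In the liver these sums were 26459 to 70461 on the controls, 100039 to 118499 at POD5 and 121444 to 149333 at POD8. Of 4 dendritic cell markers 2 were higher and 1 lower in the heart, and Itgax alone was higher in the liver (3.47 and 3.98). Of 4 neutrophil markers Retnlg was lower in the heart and Mpo lower in the liver at POD5, and of 5 B cell markers none was called.

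All 5 fibroblast markers were lower in the heart, from a sum of 286246 to 407478 on the controls to 106417 to 136368 on the allografts. In the liver their sum was 28387 to 38666 on the controls, 20945 to 26561 at POD5 and 13829 to 23777 at POD8, each below the controls, and 0 of 5 were called by limma. Ctsk, at its highest in cardiac controls, fell beside them. Of 5 osteoclast markers Ocstamp and Oscar were higher and Calcr lower in the heart, Ocstamp was higher in the liver at both times, and Calcr lay below background on all arrays. Of 8 cardiomyocyte markers 4 were lower in the heart. The part of any of these cells in the differences of Ctss, Ctsl, Ctsz and Ctsk was not tested.

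**Figure D5:**
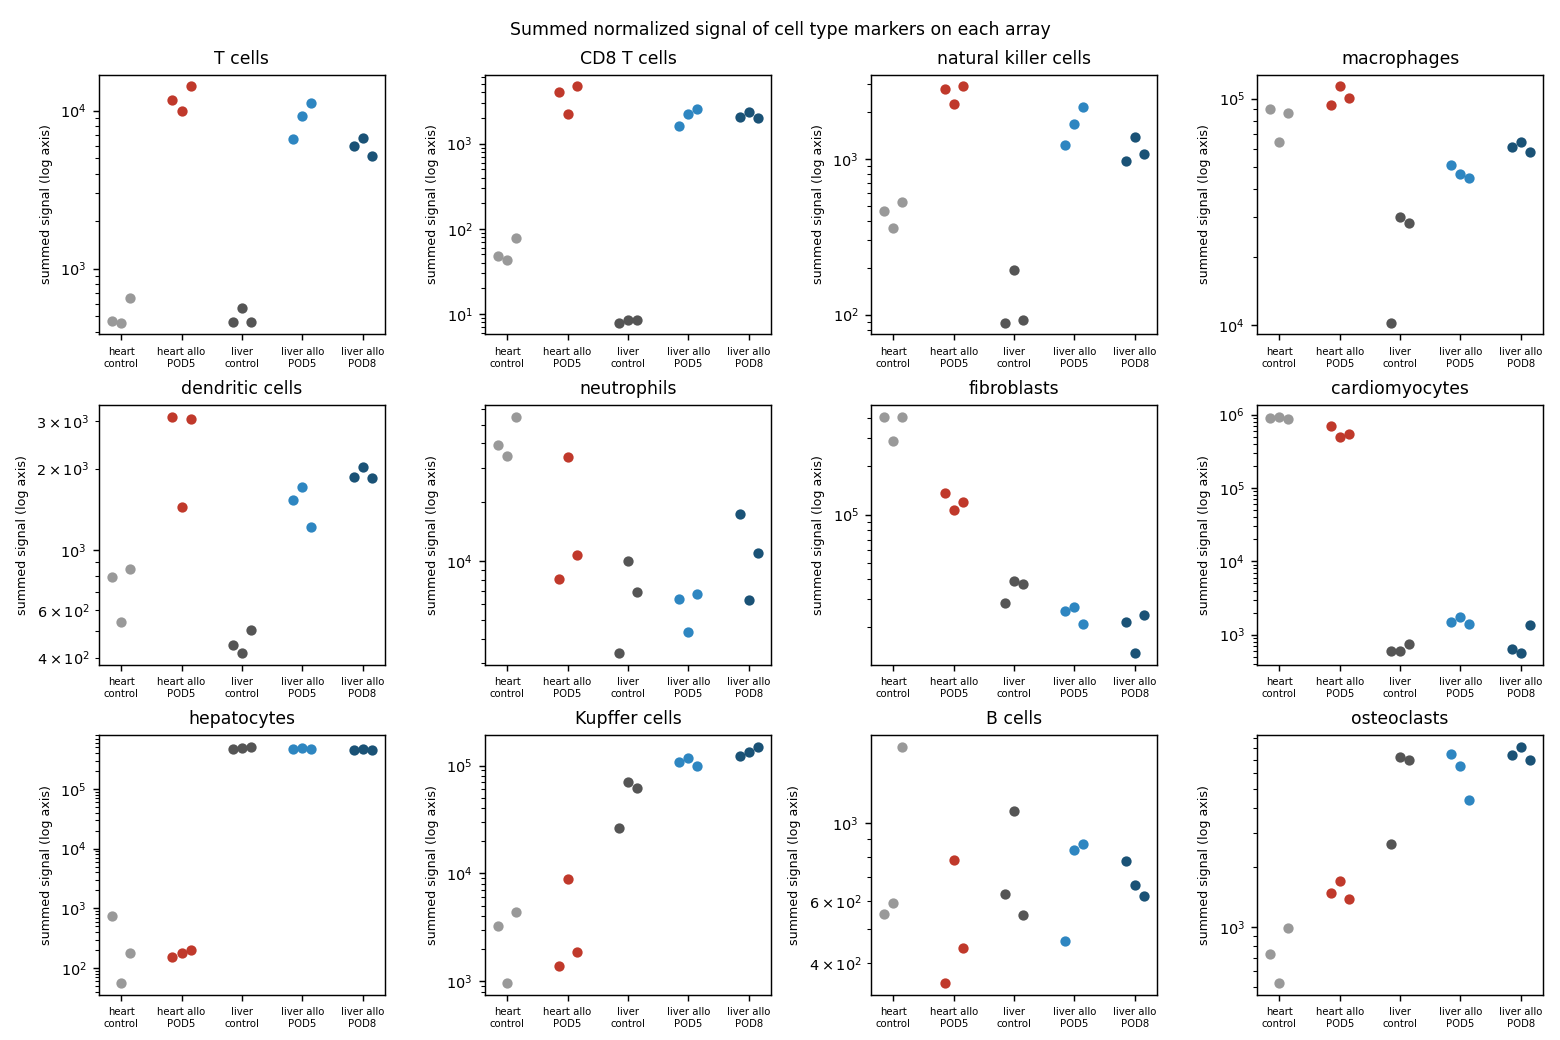
Summed normalized signal of 12 lists of cell type markers on each of the 15 arrays, on log axes. T cell and natural killer sums are higher in every allograft array than in the controls of its organ, and fibroblast sums are lower.

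The genes whose signal followed each of 5 members most closely over the 15 arrays were ranked by Pearson's r. Candidates were 15260 genes whose probe was well above background on at least 3 arrays, which 1 group alone could provide. These r values describe 5 groups rather than 15 independent points, and they carry no test. For Cst7 the 5 leading genes were Rinl (0.990), Gzma (0.986), H2-DMb1 (0.985), Gfi1 (0.985) and Fasl (0.983). For Ctsw they were Il2rb (0.991), Lck (0.990), Nkg7 (0.987), Cd2 (0.987) and Prf1 (0.984). For Ctsc they were Rac2 (0.981), Coro2a (0.981), Vav1 (0.980), Irf4 (0.979) and Rbl1 (0.979). Ctss followed Srgn (0.992), Ly86 (0.991), Tmsb4x (0.990), Emb (0.990) and Snx5 (0.989), and Ctsk followed Gpx8 (0.994), Tram1l1 (0.993), Selenon (0.992), Rassf9 (0.992) and Cyp1b1 (0.991). The 5 genes of Ctsk had values of 0.971 to 0.998 over the cardiac arrays. Over the hepatic arrays, where Ctsk was near background, they ran from 0.450 (Tram1l1) to 0.834 (Gpx8). Those of Ctss were 0.869 (Ly86) to 0.964 over the cardiac and 0.986 to 0.998 over the hepatic arrays.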

How the data were processed

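Gene expression was measured on 15 single-colour Agilent arrays. Per spot, the authors deposited a processed intensity made by the scanner software with background subtraction and a spatial trend correction and without normalization between arrays, with spot and background median intensities and background marks. Here outlier spots (47 to 113 per array, with 0 saturated) were left out, log2 was taken, spots of a probe were averaged and arrays were quantile normalized over all 15. Slides are those of the file headers. A probe was well above background when at least 0.5 of its spots were so marked. Probes were named through their RefSeq accessions (26690 of 41174, 64.8%), a table used for names only, and genes of the lists that matched no probe are not analysed here.

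Each comparison was fitted with limma 3.58.1 in R 4.3.3 on its own groups, with Benjamini-Hochberg adjustment over all probes at 0.05. Values are mean log2 differences ± SE. SFC used bins of 1000 probes, 0.455 and a normal reference. Bounds ("at least") set the brighter mean against the dimmest signal marked above background. The 10 genes are all named, with at most 3 called genes of each other list, defining markers and the 5 most alike genes of 5 members. The members and lists were chosen with earlier results of these data known. The fits were tested on simulated data. The number of arrays limits the precision.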

Additional observations from a re-analysis of the deposited data

Results flagged for a closer look

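Among the 10 genes, 3 differed between the cardiac and the hepatic POD5 comparison by the interaction test. Ctsz had a larger difference in the heart by 1.37, Ctsl a lower one by -1.26 and Ctsd a lower one by -0.95. The second probe of Ctsd did not pass this test (adjusted p = 0.0974).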

How the results depend on the processing

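Members called here in a comparison of allografts with controls kept their direction under all alternatives run, 19 in the heart, 20 in POD5 livers and 21 at POD8. Of those 21, the slide block and the single slide that holds both groups gave the same values. The number of the 10 genes called moved as follows. In the heart, 6, it was 2 by SFC (242 of 41025 probes) and 0 by the methods' t-test with Bonferroni (19 probes). In the liver at POD5, 2, it was 4 after keeping probes that stood well above background throughout at least 1 compared group. Passing in 1 group was enough, so this filter could keep a gene that passed in the allografts alone. Cst7 was such a gene, well above background on 1 of 3 hepatic controls. The number called at POD5 was 5 in 1 fit of all 5 groups and 0 to 4 without 1 array. It was 1 by the methods' t-test with Benjamini-Hochberg (231 of 41155 probes) and 0 with Bonferroni (6 probes). At POD8, 3, it was 7 with normexp (1668 probes higher and 769 lower), 5 in 1 fit of all groups and 2 by SFC (359 of 41157 probes). It was 0 there by the methods' t-test with Bonferroni (14 of 41157 probes) and 1 to 4 without 1 array. With slide as a block it was 0, and so it was within the slide that holds both groups (chosen after seeing the data). These 2 settings gave the same values for all 10 genes and count as 1 outcome. Within that slide Cst7 was 5.16 (adjusted p = 0.0669), Ctsw 2.76 and Ctss 3.23, from 2 arrays against 2. Between the controls, 7, it was 0 by SFC (595 of 41023 probes) and 0 by the methods' t-test with Bonferroni (366 probes). Where no number of probes stands beside a count, the share of all probes is not given. Such a count is no result about these genes by itself. The cause of these moves was not tested.

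The labels do not say whether replicate numbers pair the arrays. Deviations of same-numbered arrays from their group means correlated at -0.124 to 0.0891. With 3 arrays per group such values cannot exclude a pairing. With the replicate number as a block, 5 genes were called in the heart and 0 in either hepatic comparison (0 at POD5, 0 at POD8), 2 in the interaction and 6 between the controls. The shares of all probes called in these fits are not given, so these counts are no result about the genes by themselves.

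The 75th percentile moved the median of all probes to 0.47 for cardiac POD5, -0.38 for hepatic POD5, -0.46 for hepatic POD8 and -0.14 for POD8 against POD5. The share of calls that were higher went from 48.7% to 74.2% in the heart, from 71% to 18.4% at POD8, from 46.9% to 82.3% in the interaction and from 47.1% to 69.1% between the controls (12.6% within each organ).

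Signs turned only for values under 1 on the log2 scale. With the 75th percentile, the liver at POD5 gave Ctsb -0.0145, Ctsh -0.56, Ctsl -0.59 and Ctsz -0.10, POD8 gave Ctsh -0.35, POD8 against POD5 Ctsk -0.055, the interaction Ctsb 0.011, Ctsc 0.091 and Cst7 0.13, and the controls Ctsb 0.11. With normexp, Ctsk was 0.18 at POD5, 0.15 at POD8 and -0.032 between them, Ctsz -0.020 between them, and Cst7 0.76 in the interaction. The mean of all probes gave Ctsb -0.12 at POD5 and Ctsd 0.0036 between the times. Slide, as a block or alone, gave Ctsk 0.19 and Ctsl 0.13 at POD8. SFC medians gave Ctsh -0.12 and Ctsl -0.034 at POD5, Ctsl 0.061 at POD8, and Ctsc 0.079, Ctsd 0.12 and Ctsl 0.095 between the times. Normalization within each organ gave Ctsh -0.24 and Ctsl -0.14 between the controls.

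Leaving out 1 array turned signs of values not called. The ranges were -0.15 to 0.072 for Ctsb in the heart, -0.12 to 0.16 for Ctsh, -0.47 to 0.24 for Ctsk and -0.064 to 0.14 for Ctsl in the liver at POD5, -0.0049 to 0.28, -0.41 to 0.30 and -0.12 to 0.050 for these 3 at POD8, -0.16 to 0.084 for Ctsc, -0.15 to 0.11 for Ctsd, -0.048 to 0.19 for Ctsk and -0.15 to 0.024 for Ctsl between the times, -0.35 to 0.37 for Ctsc and -0.30 to 0.17 for Cst7 in the interaction, and -0.29 to 0.10 for Ctsw between the controls.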
